A study of Homo sapiens with 4 samples.

Results

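The miR-548 family was followed in the miRNA sequencing of U-251 cells as every name in the count table that starts with hsa-miR-548, whatever its letters, copy number or arm. These were 19 of 746 names. U-251 is an established human glioblastoma line, grown here in DMEM with serum. The 4 libraries were biological replicates of 1 group, wild-type U251 cells given the vehicle DMSO, and no irradiated or otherwise treated library was analysed here. The study describes basal conditions and a small RNA kit, whereas the labels describe capture of polyadenylated RNA. Values were estimated read counts, also given as CPM, the counts per 1000000 miRNA counts of the library. With 1 group, the comparisons below are between members, between libraries and with the rest of the table.

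The miR-548 genes are primate-specific and derive from MADE1, a short palindromic DNA transposon of the mariner type. A transcript that reads through such a palindrome folds back on itself, and the fold can be cut by Drosha and Dicer like any other miRNA hairpin. A mature miRNA is then loaded into AGO2, and its seed, bases 2 to 8, leads the pairing with target mRNAs. Because MADE1 copies are scattered over the genome, the family has many dispersed loci, most of them inside introns, and members with near-identical letters.

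GENCODE release 44 holds 72 miR-548 hairpin genes on 22 chromosomes of GRCh38, the build of the deposited counts. The letters of the 19 names match 23 of these genes on 15 chromosomes. Of the 19 names, 14 have 1 hairpin gene, 3 have 2 and 2 have 3. Of the 23 hairpins, 15 lie in an intron of a gene on the same strand, and for 11 of them that gene is protein-coding. A further 3 overlap genes on the opposite strand only, and 5 overlap no other gene. RefSeq (GRCh38.p14) gave a mature sequence for 13 of the 19 names. Letters, seeds and matches given below are those of the name, which may not be those of the arm counted. None was given for miR-548ae-5p and miR-548a-3p, with 53 and 47 counts in all. Sequences of members high in summed count are shown first because they show how the letters of the family vary, with the seed in capitals.
miR-548t-5p: cAAAAGUGaucgugguuuuug
miR-548l: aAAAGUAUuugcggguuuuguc
miR-548b-5p: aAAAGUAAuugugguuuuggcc
miR-548av-5p: aAAAGUACuugcggauuu
miR-548e-5p: cAAAAGCAaucgcgguuuuugc
miR-548ai: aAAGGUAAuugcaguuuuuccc

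The other arm is shown by miR-548aq-3p, and the most repeated 5p letters by miR-548x-5p.
miR-548aq-3p: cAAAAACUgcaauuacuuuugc
miR-548x-5p: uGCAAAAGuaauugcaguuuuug

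The run AAAAGU, sought 5′ to 3′ in the RNA only, occurred in 8 of the 13 members with a sequence and in 11 of the 674 names of the table with one (1.63%). It began at base 1 in miR-548l, miR-548b-5p, miR-548av-5p, miR-548at-5p and miR-548ah-5p, at base 2 in miR-548t-5p and at base 4 in miR-548x-5p and miR-548aj-5p. The 13 members had 11 different seeds. Only miR-548ai and miR-548ba, and miR-548x-5p and miR-548aj-5p, shared one. None of the 661 names outside the family with a RefSeq sequence had any of these seeds. Over the 78 pairs of members, the median share of equal bases at the best ungapped fit was 72.7% of the shorter sequence. The letters of miR-548x-5p and miR-548aj-5p are the same over all 23 bases. Those of miR-548av-5p are the first 18 bases of miR-548k, which has no row in the table as analysed here, and those of miR-548ai equal miR-570-5p. Reads of such sequences cannot be assigned to 1 locus by their letters.

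Total counts lay between 12363104 and 13214969 per library, and 413 to 456 of the 746 names had a value in a given library. Blank cells, taken here as 0, were not limited to scarce miRNAs. Of the 746 names, 12 exceeded 1000 counts in 1 library and were blank in another, so a blank is not a measured absence. Names of the glioma and astrocyte list (6 names) summed to 79624 to 116931 CPM. The 2 names of the erythroid list summed to 0 to 0.485 CPM with miR-451a blank throughout, and the 2 of the white blood cell list to 1.06 to 2.90 CPM. The 3 names of the neuron list summed to 1720 to 2611 CPM, with miR-124-5p blank throughout. The 1 name of the liver list, miR-122-5p, lay at 10.1 to 35.8 CPM, and the 3 of the muscle list summed to 0.485 to 3.91 CPM. The part of RNA from other cells in the values of the family was not tested.

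The miR-548 names of the table held few counts. RefSeq holds 55 mature miR-548 names, of which 13 have a row in the table, so members without a row are not in the sums below. Its 19 names together held 360, 140, 140.5 and 94.5 counts in replicates 1 to 4. Replicate 1 was the high library and replicate 4 the low one. Of the 735 counts in all, 49.0% came from replicate 1. The family's share was 28.7 CPM in replicate 1 (95% Wilson interval 25.9 to 31.8), 10.6 in replicate 2 (8.98 to 12.5), 11.4 in replicate 3 (9.60 to 13.4) and 7.41 in replicate 4 (6.03 to 9.02). The interval of replicate 1 did not overlap any other, and those of replicates 3 and 4 did not overlap each other, but these intervals cover counting error only. The mean was 14.5 CPM ± 9.61 (SD, n = 4), or 0.00145% of all miRNA counts. Over the 3 other libraries it was 9.79 CPM ± 2.10 (SD, n = 3), and replicate 1 lay 2.93-fold above that mean. Dixon's ratio, the gap of the highest library to its neighbour over the whole range, was 0.814 and did not pass the 95% critical value. It passed with TMM (0.856), upper-quartile (0.832) and DESeq2 (0.863) scaling. With only names listed in all 4 libraries kept, the ratio was 0.685 and did not pass.

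**Figure D1:**
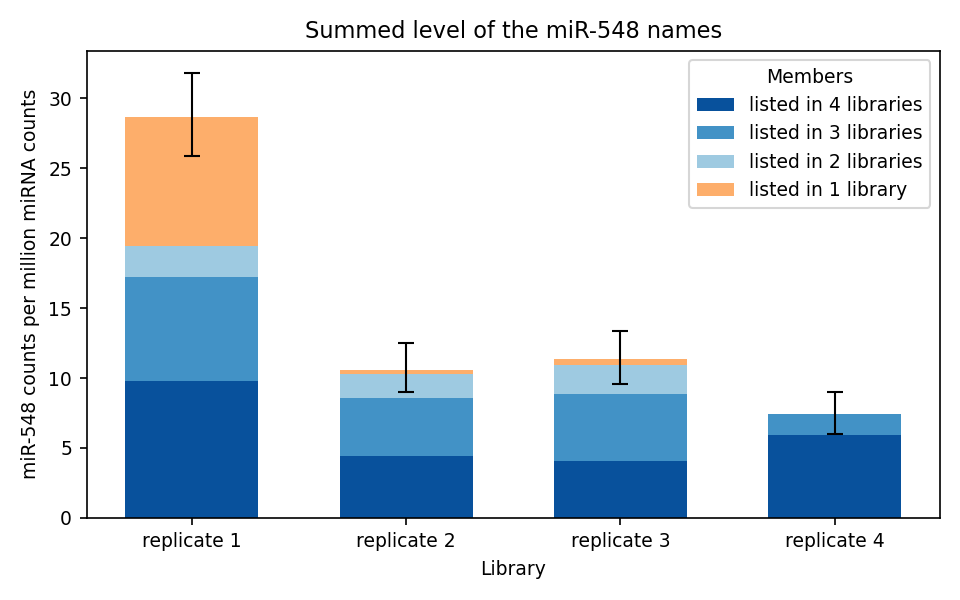
Summed level of the miR-548 names in each of the 4 libraries, in CPM, with bars split by how many libraries list a member and 95% Wilson intervals for counting error on the total. Replicate 1 reached 28.7 CPM against 7.41 to 11.4 CPM in the other libraries, where members listed in no other library held 116 of its 360 counts.

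Most members were seen in few libraries. A value was given in all 4 libraries for 3 names, in 3 libraries for 2, in 2 libraries for 2, in 1 library for 6 and in none for 6. Values filled 28 of the 76 cells of the family. Over all names of the table, 41.4% had a value in every library and 16.8% in none. Among the 727 names outside the family these counts were 306 with a value in every library, 68 in 3, 84 in 2, 150 in 1 and 119 in none. The members with a value had a median of 47 counts summed over the libraries, against 93 for all 621 names with a value. Of the 347 names whose sum was above 0 but no higher than that of the top member, 19.6% had a value in every library and 41.8% in 1 library. Beside these stand the 13 members with a value, of which 3 had one in every library and 6 in 1 library. A count of 10 or more in each library was reached by 2 of the 19 members and by 37.5% of all names.

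**Figure D2:**
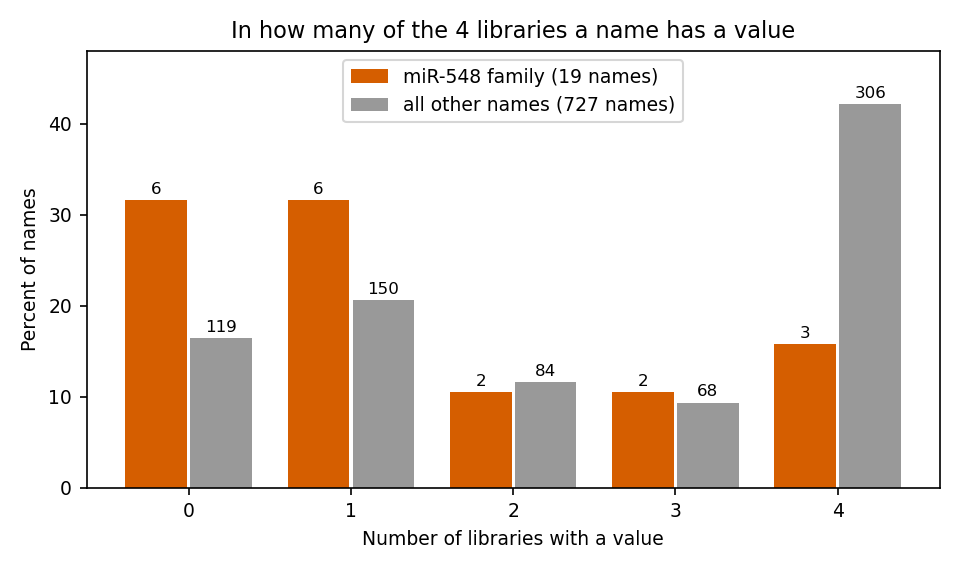
Percent of names with a value in 0, 1, 2, 3 or 4 libraries for the 19 miR-548 names and the 727 other names, with the number of names over each bar. At 4 libraries are 15.8% of the family's names (3) and 42.1% of the other names (306). The shares are 31.6% (6) and 16.4% (119) at 0 libraries, and 31.6% (6) and 20.6% (150) at 1 library.

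The libraries differed in how many members they listed. Replicate 1 listed 10 members, replicate 2 listed 6, replicate 3 listed 8 and replicate 4 listed 4. Over the whole table, replicates 1 and 2 each listed 456 names, replicate 3 listed 449 and replicate 4, again the lowest, listed 413. Of the 13 members with a value, 9 were highest in CPM in replicate 1, against 33.0% of all names with a value. Members listed in 1 library only were 6 of the 13, against 25.1% of all names with a value. Among the 347 names with a sum above 0 but no higher than the top member's it was 41.8%. For 4 of the 6 that library was replicate 1, against 34.0% of all names listed in 1 library only. These 4 held 116 counts, and replicate 1 without them still had 244 counts of the family, above the 140.5 of the next library.

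The member with the most counts was miR-548t-5p, whose seed AAAAGUG none of the other members with a sequence shares. Its gene lies in an intron of GALNT7, which encodes an enzyme of O-linked glycosylation. Its counts were 62 in replicate 1, 29 in both replicates 2 and 3, and 36 in replicate 4. Replicate 1 was the high library and the other 3 lay within a few counts. Its level was 3.08 CPM ± 1.27 (SD, n = 4), rank 275 by summed count, and its share of the family's counts was 24.2% ± 9.43 (SD, n = 4). In replicates 1 to 3 together miR-548l had more counts than miR-548t-5p, but miR-548l was blank in replicate 4.

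The next member with a value in every library was miR-548b-5p, which carries the seed AAAGUAA. In RefSeq that seed is the commonest of the seeds found here, with 11 miR-548 names. The counts were 42, 24, 12 and 26 in replicates 1 to 4, so that replicate 1 was again the high library and replicate 3 the low one. The level was 2.04 CPM ± 0.984 (SD, n = 4). Its gene, MIR548B, lies at chr6:119069047-119069143 (minus strand), in an intron of FAM184A.

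The other one was miR-548a-3p, with 19, 5, 9.5 and 13.5 counts and 0.930 CPM ± 0.479 (SD, n = 4). Replicate 1 was the high library here too, and replicate 2 the low one. This was the single member with values that are not whole. It has 3 hairpin genes, MIR548A1 in an intron of the non-coding gene MIR548A1HG on chromosome 6, MIR548A2 on the same chromosome with no overlapping gene, and MIR548A3 on chromosome 8. The name of its other arm, miR-548a-5p, had no value in any library.

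All 3 of these members were highest in CPM in replicate 1, against 34.0% of all names with a value in every library, and replicate 1 lay 2.01-fold (miR-548t-5p), 2.08-fold (miR-548b-5p) and 2.06-fold (miR-548a-3p) above the mean of the others. Together they held 123, 58, 50.5 and 75.5 counts in replicates 1 to 4. They made up 34.2% to 41.4% of the family in replicates 1 to 3 and 79.9% in replicate 4, the library with the fewest members. The order of the 3 was the same in all 4 libraries. The mean log2 ratio was 0.63 (SD 0.42) of miR-548t-5p to miR-548b-5p and 1.13 (SD 0.76) of miR-548b-5p to miR-548a-3p, with a two-sided exact sign-flip permutation p of 0.13 for each, also after adjustment over the 2 pairs. This is the smallest p that 4 libraries allow, so the test could not pass 0.05.

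**Figure D3:**
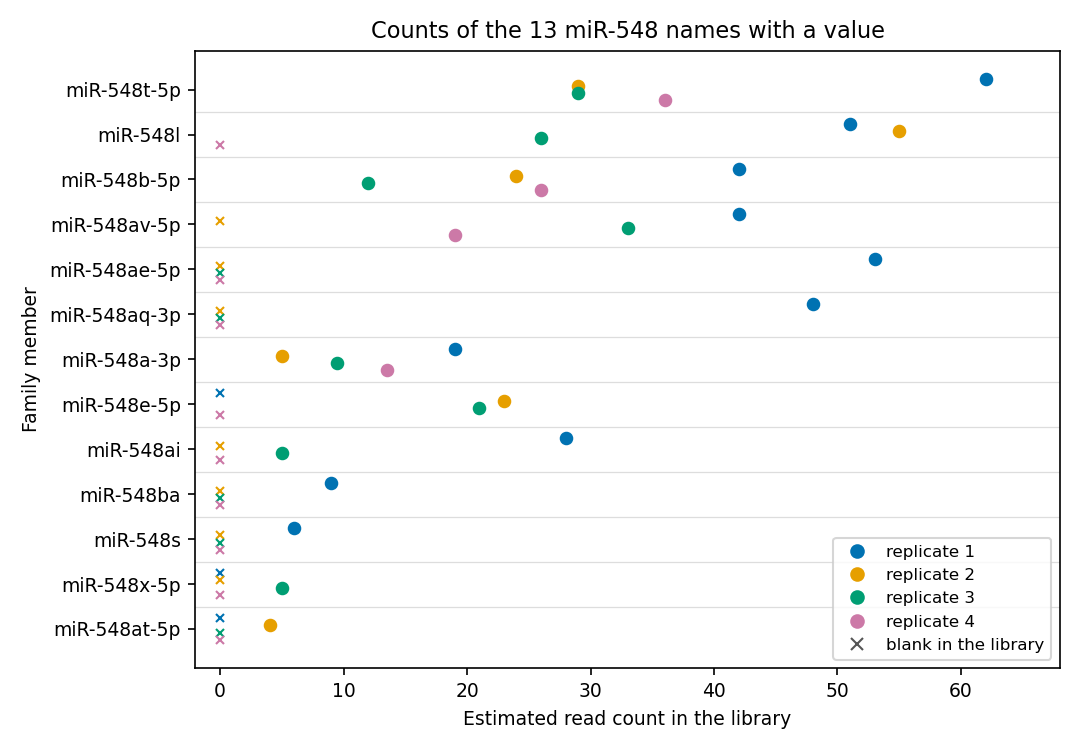
Estimated read count of the 13 miR-548 names with a value (rows) in the 4 libraries (colours), with a cross at 0 for a blank cell. The highest count is 62, for miR-548t-5p in replicate 1, and only the names miR-548t-5p, miR-548b-5p and miR-548a-3p have no cross.

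Members with a value in 3 libraries reached similar counts but each missed 1 library. miR-548l had 51 counts in replicate 1, 55 in replicate 2 and 26 in replicate 3, and was blank in replicate 4. It was the leading member of replicate 2. Its gene lies at chr11:94466495-94466580 (minus strand), in an intron of MRE11, which encodes a nuclease of DNA double-strand break repair. miR-548av-5p had 42 counts in replicate 1, 33 in replicate 3 and 19 in replicate 4, and was blank in replicate 2. It led replicate 3, and its gene lies at chr18:72853321-72853382 (minus strand), in an intron of NETO1, which encodes an auxiliary subunit of glutamate receptors. The 2 names differ at 2 of 18 aligned bases, and their blanks fell in different libraries. With the limit of 3 counts for a count of 0, a blank read as 0 allows up to 0.227 to 0.243 CPM, whereas the lowest value listed for either was 1.49 CPM.

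For miR-548e-5p, replicate 2 gave 23 counts and replicate 3 gave 21, while replicates 1 and 4 were blank. It was the one member listed in more than 1 library that was blank in replicate 1. Its letters differ from those of miR-548t-5p at 3 of 21 aligned bases, but its seed is another, AAAAGCA. MIR548E lies at chr10:110988926-110989013 (plus strand), in an intron of SHOC2, which encodes a scaffold of RAS signalling. miR-548ai had 28 counts in replicate 1 and 5 in replicate 3 and overlaps no other gene, at chr6:99124609-99124696 on the plus strand. Its higher value was again in replicate 1.

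Of the 6 members listed in 1 library only, miR-548ae-5p and miR-548aq-3p had the most counts. miR-548ae-5p had 53 counts in replicate 1, or 4.23 CPM, which made it the second member of that library, and blanks in the other 3. miR-548aq-3p had 48 counts in replicate 1, or 3.83 CPM, and blanks in the other 3. Of the 78 pairs of members with a value, this was the only pair whose counts lay within 10% of each other wherever either reached 10 counts. That comparison rests on 1 library. MIR548AQ lies at chr3:185767847-185767904 (minus strand), in an intron of IGF2BP2, which encodes an mRNA-binding protein. miR-548ae has 2 hairpin genes, 1 in an intron of a non-coding gene on chromosome 2 and 1 outside genes on chromosome 5.

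The remaining listed members stayed under 10 counts in a single library. miR-548ba had 9 counts and miR-548s 6, both in replicate 1, miR-548x-5p had 5 in replicate 3 and miR-548at-5p had 4 in replicate 2. The lowest value listed in the whole table was 1. No value was listed in any library for miR-548a-5p, miR-548ah-5p, miR-548aj-5p, miR-548ap-3p, miR-548au-5p and miR-548aw. The letters of miR-548aj-5p equal those of miR-548x-5p, so names of the same mature letters had different values in replicate 3. The names miR-548a-3p and miR-548a-5p, which match the same 3 hairpin genes, were listed in 4 and 0 libraries.

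By arm, 11 members are 5p names, of which 7 had a value and held 460 counts. The 3 members that are 3p names held 95 counts through miR-548a-3p and miR-548aq-3p, while miR-548ap-3p was blank. The 5 members without an arm in their name held 180 counts, and 4 of them had a value. Names of the 3p arm were 15.8% of the family and 2.41% of the whole table, where 18 such names held 401 counts in all. The table holds 538 names of the 5p arm, so a name says how the counts were labelled and was not checked against reads.

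The members' letters are rich in A and U and some recur in the genome. The median content of A and U was 65.0% over the 13 members with a sequence, from 54.5% in miR-548e-5p to 69.6% in miR-548x-5p and miR-548aj-5p, and 50.0% over all 674 names with a sequence. At least 54.5% was also found for 250 of the 661 names outside the family. Exact matches of the mature letters in hg38 numbered 572 for miR-548aq-3p, 550 for the letters of miR-548x-5p and miR-548aj-5p and 26 for miR-548b-5p. The figure of 572 was the highest of all 674 names. The letters of miR-548av-5p and of miR-548ai matched 2 places each. Those of miR-548t-5p, miR-548l, miR-548e-5p, miR-548ba, miR-548s, miR-548at-5p and miR-548ah-5p matched 1 place, their own gene. A single match was found for 7 of the 13 members (53.8%) and for 84.1% of all names with a sequence. Members at 550 matches or more had a value in at most 1 library. So had miR-548ba, miR-548s, miR-548at-5p and miR-548ah-5p with 1 match, none of which had more than 9 counts. miR-548b-5p with 26 matches had a value in all 4. How the counting treated reads with many matches is not given in the sources used here, and its part in these values was not tested.

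**Figure D4:**
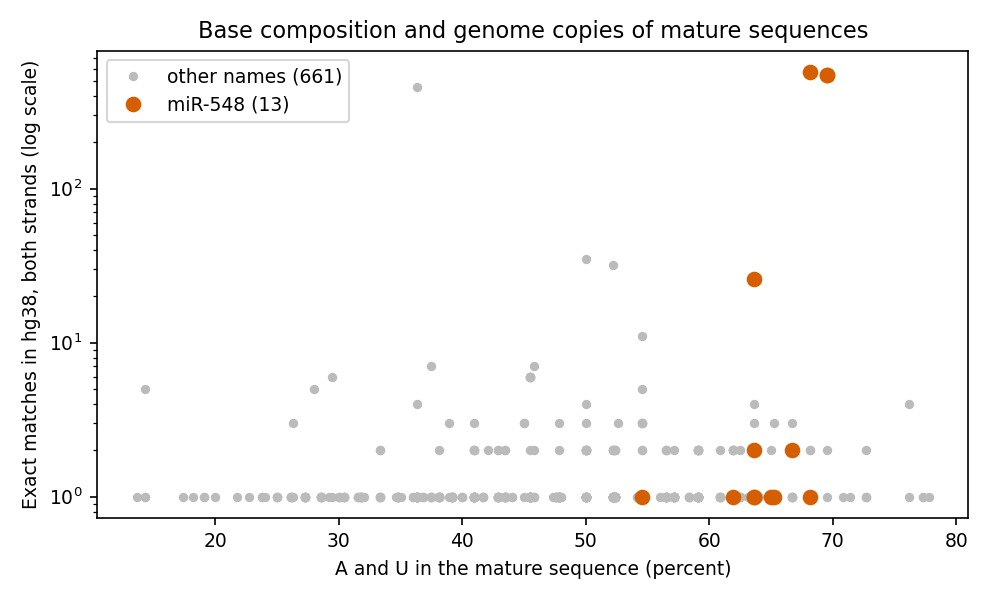
Exact matches in hg38 on both strands (log axis) against the percent of A and U in the mature sequence, for the 13 miR-548 names and the 661 other names with a RefSeq sequence. The family lies at 54.5% to 69.6% A and U, from 1 match to 572.

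Replicate 1 was often the higher library for names rich in A and U outside the family as well. Across the 254 names with a sequence and at least 10 counts in every library, Pearson's r between the content of A and U and the log2 ratio of replicate 1 to the mean of the others (CPM + 1) was 0.466. This is a description across names that share the same libraries. The letters are those of the arm in the name, which may not be the arm counted: miR-19b-1-5p and miR-19b-2-5p, with 52.2% and 63.6% A and U, had nearly the same log2 ratio, 1.39 and 1.38. Of the 44 names outside the family with at least 60% A and U, 32 were higher in replicate 1 and the median log2 ratio was 0.40. Of the 208 names below 60%, 84 were higher in replicate 1 and the median was -0.12. On the same scale the log2 ratio was 0.78 for miR-548t-5p and 0.74 for miR-548b-5p, the 2 members that reached that count. The part of base composition in the high family level of replicate 1 was not tested.

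**Figure D5:**
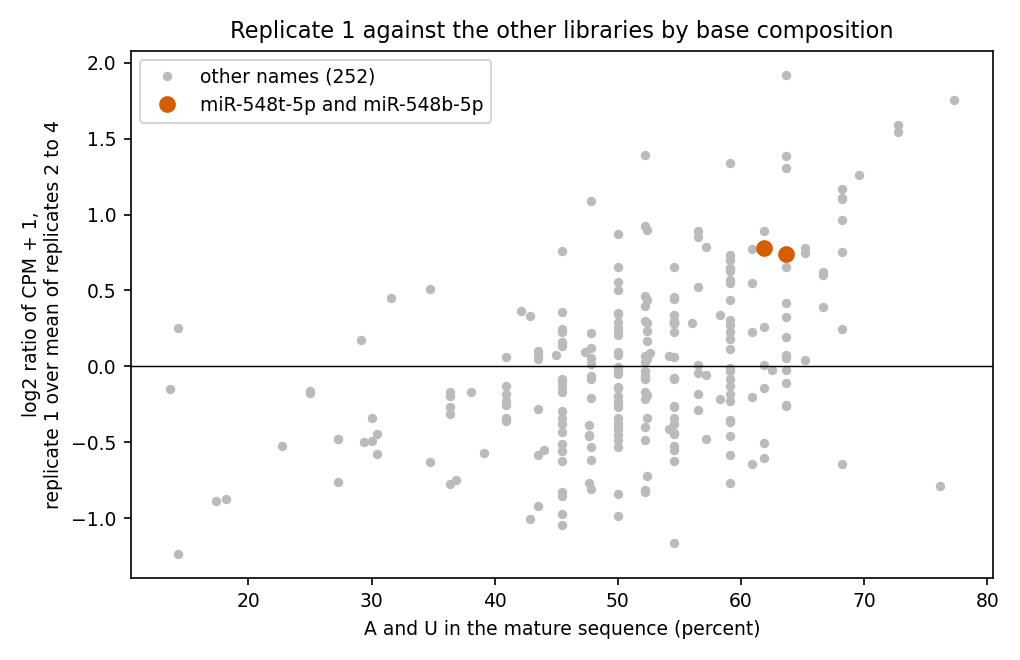
Log2 ratio of CPM + 1 in replicate 1 to the mean of replicates 2 to 4 against the percent of A and U in the mature sequence, for 254 names with at least 10 counts in every library. The points of miR-548t-5p and miR-548b-5p lie at 0.78 and 0.74, above the median of 0.40 of the 44 other names with at least 60% A and U.

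Other miRNAs known to derive from repeats were set beside the family, from a list of 15 of which 10 had a row. Of the MADE1 relatives miR-570, miR-579 and miR-603, a single row was present, miR-579-5p, with 14 counts in replicate 4 and blanks elsewhere. Among miRNAs from other repeats, 8 of 9 rows had a value in every library and miR-545-5p had none. The highest were miR-151b with 1883 CPM ± 187 and miR-28-5p with 1223 CPM ± 93.6 (SD, n = 4). miR-151a, on the same list, had no row, and names were not checked against reads here either. The summed count of miR-28-5p was 84.6 times that of the 19 miR-548 names of the table together. miR-576-5p, with 325.5, 177, 153.5 and 111 counts in replicates 1 to 4, came closest to the family, at 1.04 times its summed count. Of the 8 rows, 6 were highest in CPM in replicate 1, against the 34.0% of all names with a value in every library, among them miR-374a-5p (3.17-fold above the mean of the others) and miR-340-5p (3.08-fold), whereas miR-95-5p was at 0.379-fold.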

How the data were processed

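Small RNA of 4 libraries of U-251 cells, 1 group, was analysed here. As given in the study's methods and the submitters' processing notes, reads were demultiplexed with bcl2fastq 2.20, trimmed with Trimmomatic, kept up to 27 bases, mapped with Bowtie to hg38 and counted with miRDeep2. The deposited values are estimated counts per miRNA name, unnormalized by the authors, and 40 names carry values that are not whole. The annotation release, the mismatch setting and the handling of multiply mapping reads and molecular identifiers are not given in the sources used here. Replicates were those named as biological replicates in the labels.

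Members were all names that start with hsa-miR-548. Members, lists and comparisons were chosen with earlier results of these data known. A blank cell was taken as 0 counts. Counts were expressed as CPM, counts per 1000000 miRNA counts of the library, and were not filtered. With 1 group, no test between conditions was possible. Named with their count in every library were members with a value in all 4 libraries and the 10 with the highest summed count. Neighbouring members in rank were compared by a two-sided exact sign-flip permutation test with a pseudocount of 0.5 counts and Benjamini-Hochberg adjustment. A library standing apart was sought with Dixon's ratio at its 95% critical value for 4 samples. Intervals are 95% Wilson intervals and cover counting error only, and so does the limit of 3 counts for a count of 0. Mature sequences came from RefSeq (GRCh38.p14), hairpin genes from GENCODE release 44, and exact matches were counted on both strands of the 24 assembled chromosomes of hg38. Computation used Python 3.11.15, pandas 2.3.3, numpy 2.4.6, scipy 1.17.1 and matplotlib 3.10.9. Alternatives covered TMM and upper-quartile scaling in edgeR 4.0.16 and DESeq2 1.42.0 scaling under R 4.3.3 with counts rounded, count minimums, membership, hairpin number and left-out replicates. Dixon's call was tested on simulated counts, and the smallest sign-flip p on 4 values of 1 sign. Scaling was run on the simulated counts without a comparison to known factors. The other steps were not tested in this way.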

Additional observations from a re-analysis of the deposited data

Results flagged for a closer look

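For 6 members the share of 1 library stood apart from the other 3 by Dixon's ratio, each with a ratio of 1, which is fixed because the other 3 libraries were blank. They were miR-548ae-5p with 53 counts, miR-548aq-3p with 48, miR-548ba with 9 and miR-548s with 6, all in replicate 1, miR-548at-5p with 4 in replicate 2 and miR-548x-5p with 5 in replicate 3. Chance alone passes about 1 in 20 groups. Of the 280 names that reached 10 counts in each library, 11.1% passed, and neither of the 2 members among them did.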

How the results depend on the processing

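The number of members with a value in every library lay between 2 and 4 under all settings run, against 3. The number without any value, 6, became 10 when at least 10 counts were asked, and lay between 6 and 10 with 1 replicate left out, the 10 being without replicate 1. Members with at least 10 counts in any library numbered 9, against 2 with as many in every library. The share over all names was taken for every library only, at 37.5%. The share of the family held by miR-548t-5p, 24.2%, was 60.8% among names with at least 10 counts in every library and 51.4% among names with a value in every library, since both settings leave out other members by construction. Without replicate 4 the top member was miR-548l, with a mean share of 24.0%. The family's mean of 14.5 CPM moved by less than its SD of 9.61 CPM under every setting. That limit is wide, since the SD over replicates 2 to 4 was 2.10 CPM. By the same construction the mean was 5.20 and 6.14 CPM with these 2 filters. With 1 replicate left out it was 9.79 CPM (without replicate 1) to 16.9 CPM. Dixon's ratio of the family, 0.814, was 0.856 with TMM, 0.832 with upper-quartile and 0.863 with DESeq2 scaling, past the critical value. Keeping only names listed in all 4 libraries lowered the ratio to 0.685, short of the critical value. The number of neighbouring pairs with 1 order in every library, 2, was 1 without replicate 2 and 2 without another replicate. The pairs were not always the same, since miR-548av-5p joined the members compared without replicate 2 and miR-548l without replicate 4. Among themselves, miR-548t-5p, miR-548b-5p and miR-548a-3p kept their order in each library. Of 32 recomputed values of single members, 31 moved by less than the SD, and miR-548a-3p moved to 0.310 CPM when divided by its 3 hairpin genes. Chosen after seeing the data, the number of members with a value was 9 without replicate 1 and 12 or 13 without another replicate, against 13. No paired analysis was possible because only 1 group was sequenced. Counts of at most 62 limit every statement on single members.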

Other observations

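Beyond the mature letters, the hairpins of the members differed in the length of their perfect self-complementarity. The fold itself was not computed. The longest stretch with an exact complement later in the same hairpin was 18 bases in MIR548A1, MIR548AJ1, MIR548X and MIR548X2, 19 bases in MIR548AJ2, and 8 bases in MIR548AV, MIR548E, MIR548BA and MIR548AU. MIR548A3 was not measured. Of the names of these hairpins, miR-548aj-5p, miR-548au-5p and miR-548a-5p had no value. miR-548x-5p and miR-548ba had a value in 1 library, miR-548e-5p in 2, miR-548av-5p in 3 and miR-548a-3p in 4. Long and short stretches thus occurred both among listed and among unlisted members.

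In RefSeq, the seed AAAAACU of miR-548aq-3p belongs to 7 miR-548 names, the seed AAGGUAA of miR-548ai and miR-548ba to 3, and the seed AAAAGUG of miR-548t-5p to that name alone. Outside the family, AAGGUAA is also the seed of miR-570-5p, AAAGUAA that of miR-559 and AAAGUAC that of miR-8054.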
